A study of Homo sapiens with 6 samples.

Results

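The genes described here are 30 that make cholesterol or sense, take up, move and store it, taken by symbol from a table of 27134 genes. They comprise 19 enzymes of synthesis, 5 genes of the sterol sensor and its transcription factors, and 6 genes of uptake, transport, export and storage. All 30 were found in the table under 1 Ensembl identifier each, and all passed the filter on low values, a mean of at least 1 normalised count over the libraries. The cells were KM12, a human cell line established from colorectal cancer, and RNA sequencing covered 2 groups of 3 libraries: cells carrying CDO1-overexpression and mock control cells, both at passages 10 to 15. CDO1 encodes cysteine dioxygenase, which oxidises cysteine. The labels name neither the vector nor the promoter behind the overexpression, nor whether the cells were 1 clone or a pool. Nor do they say whether replicates were cultured separately, and a p-value here may therefore reflect technical spread among the libraries alone.

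Cholesterol is built from acetyl-CoA. The mevalonate steps join acetyl groups and turn them into activated isoprene units, these are condensed to farnesyl diphosphate and then squalene, and squalene is closed to lanosterol, which is trimmed to cholesterol in the endoplasmic reticulum. When sterol in that membrane falls, SCAP escorts the SREBP transcription factors to the Golgi, where they are cut free to switch on most genes of the pathway, and when sterol is ample the INSIG proteins hold SCAP back. When sterols accumulate, the LXR receptors induce exporters such as ABCG1 and the ubiquitin ligase MYLIP. The intestinal epithelium both makes cholesterol and takes it up from food and lipoproteins.

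Reads assigned to genes totalled 17516640 to 22198173 per library, and 1 read was worth 0.896 to 1.13 normalised counts, so values below can be read nearly as reads. CDO1 stood at 2333 to 2484 normalised counts in the CDO1 libraries, at 68.1 in mock replicate 1 and at 0 in mock replicates 2 and 3. At an adjusted p of 0.05 in limma 11.3% of all genes tested were higher, and 17.3% of genes with a mean of at least 20. All 8 colorectal epithelial markers were detected and all 8 rose by that rule, from 1.16-fold (EPCAM) to 3.15-fold (VIL1). Their summed level was 117567 to 122199 in mock and 167854 to 179345 in CDO1 libraries. KRT8 made up most of that sum, at 83712 to 89902 in mock and 118502 to 130882 with CDO1. COL1A2, COL3A1, DCN, LUM, PTPRC and CD3E, markers of fibroblasts and immune cells, had no row. Of 16 markers of fibroblasts, immune cells and endothelium 10 were in the table. The endothelial markers summed to 127 in mock replicate 1, 26.3 and 29.4 in the other mock libraries and 55.2 to 77.7 with CDO1, the fibroblast markers to 78.0, 27.3 and 19.2 against 43.4 to 50.4, and the immune markers to 17.0 to 23.3 against 7.35 to 14.2. The part of these differences in the results was not tested, and the counts below are also given without mock replicate 1.

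Of the 30 cholesterol genes, 13 rose, 2 fell and 15 did not pass an adjusted p of 0.05 in limma over all genes tested. Over all 21775 genes tested, 11.3% were higher and 12.7% lower by the same rule, against 43.3% and 6.67% of these genes. All 30 averaged above 20 normalised counts, and of the 13646 genes with a mean of at least 20, 17.3% were higher and 17.9% lower, with a median log2 fold change of 0.01. The rises ran from 1.14-fold (DHCR7) to 1.54-fold (HMGCS1), and the falls were 1.19-fold (PMVK) and 1.31-fold (MVD). The median log2 fold change was 0.17 over the 30 and -0.0035 over all genes tested. Its sign was positive in 26 of the 30, in 23 with equal library totals or the GC trend removed, and in 25 with edgeR. Groups did not overlap in 17 genes with CDO1 above and 3 with CDO1 below, where 18.3% and 18.9% of all genes tested did so. Among the 13646 genes with a mean of at least 20, 3420 lacked overlap with CDO1 above and 3214 with CDO1 below. By the adjusted p of the authors' deposited table, 12 of the 30 were higher and 2 lower. Over all its 27134 genes, also those under the filter on low values, the shares were 7.64% and 8.3%. DESeq2 on the recovered reads also called 12 higher and 2 lower, against 13.8% and 14.8% of 15029 genes. Without mock replicate 1, 9 were higher and 1 lower, and 1 was also lower without mock replicate 2, CDO1 replicate 1 or CDO1 replicate 3. Calls over all genes dropped too without mock replicate 1, to 1852 higher and 2162 lower of 21824. With all libraries they were 2467 and 2762 of 21775.

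**Figure D1:**
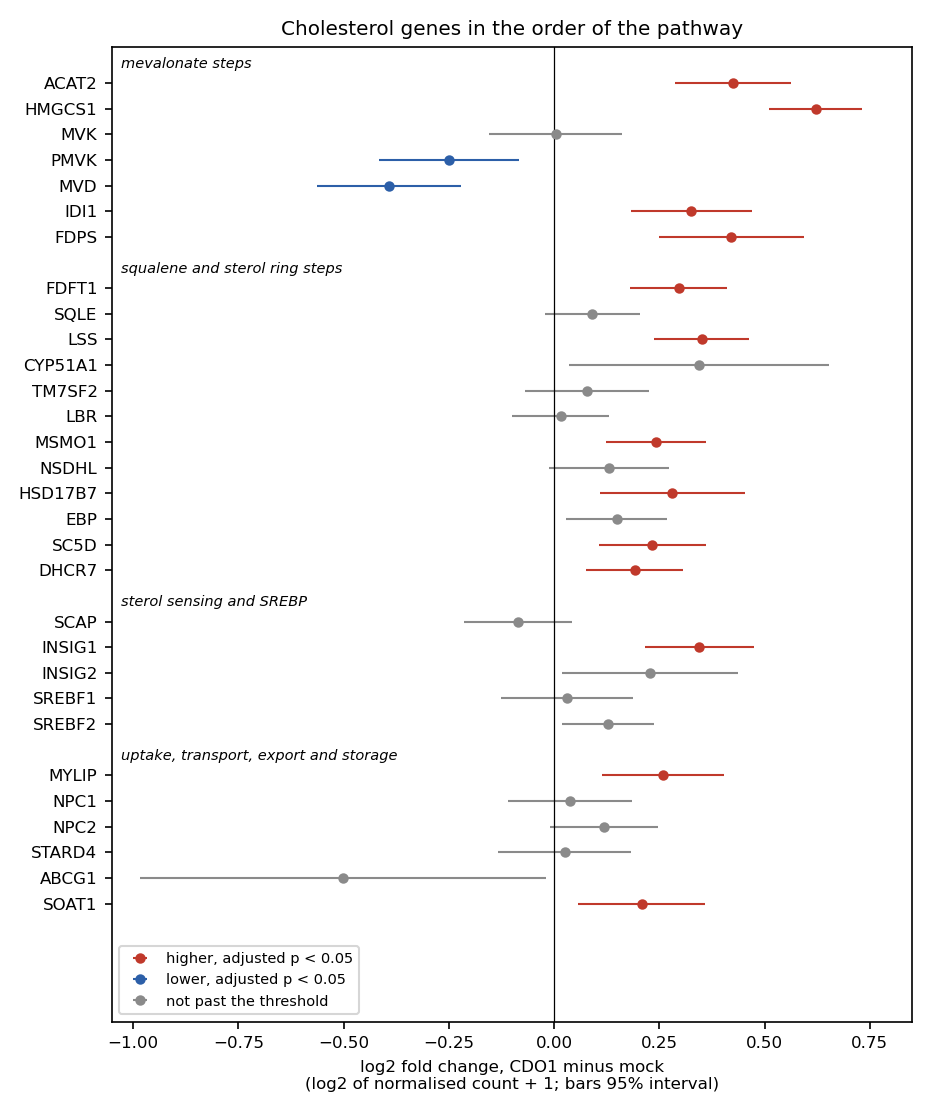
Log2 fold change of each of the 30 genes (CDO1 minus mock; log2 scale, pseudocount 1) in the order of the pathway, with limma's 95% interval; red rose, blue fell, grey did not pass. HMGCS1 lies highest at 0.62, while MVD at -0.39 and PMVK at -0.25 are the members that fell.

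The mevalonate steps were split: 4 of 7 genes rose, at the entry and the end, and 2 fell in between. ACAT2, the cytosolic thiolase that joins 2 acetyl-CoA (ENSG00000120437, GRCh38 chromosome 6, 159760328 to 159779055), is distinct from the cholesterol acyltransferases of a similar name. It stood at 609, 555 and 593 normalised counts in mock replicates 1 to 3 and at 802, 792 and 764 in CDO1 replicates 1 to 3. Each CDO1 library was above each mock library, and the mean was 1.34-fold higher (log2 fold change 0.42 ± 0.07 SE, adjusted p = 6.18e-05 in limma). HMGCS1, the cytosolic synthase that adds the next acetyl group (ENSG00000112972, chromosome 5, 43289395 to 43313512), stood at 2060, 1975 and 2165 in mock and 3194, 3185 and 3154 with CDO1. The SD of the CDO1 libraries was 0.660% of their mean, no library of one group reached the other, and the difference was the widest rise of the 30, at 0.62 ± 0.05 (SE) on the log2 scale (adjusted p = 2.12e-08 in limma).

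The kinase and decarboxylase steps that follow did not rise. MVK, mevalonate kinase, was at 611 ± 48.9 in mock and 612 ± 37.2 with CDO1 (SD, n = 3), with a log2 fold change of 0.00 and an interval of -0.15 to 0.16. PMVK, which adds the second phosphate (ENSG00000163344, chromosome 1, 154924734 to 154936991), stood at 544, 596 and 512 in mock and 458, 499 and 433 with CDO1. The highest CDO1 library lay just below the lowest mock library, and PMVK fell by 0.25 on the log2 scale (SE 0.08, adjusted p = 0.0259 in limma). That call ended without mock replicate 1, mock replicate 2, CDO1 replicate 1 or CDO1 replicate 3, where the adjusted p lay between 0.0688 and 0.141 (range over all alternatives 0.00746 to 0.141). MVD, the decarboxylase that makes isopentenyl diphosphate (ENSG00000167508, chromosome 16, 88651935 to 88663161), stood at 1794, 2111 and 1692 in mock and 1384, 1610 and 1273 with CDO1. Replicate 2 was the highest library of both groups, the groups did not overlap, and MVD fell by 0.39 on the log2 scale (SE 0.08, adjusted p = 0.00121 in limma).

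The last mevalonate genes rose again. IDI1, the isomerase that converts isopentenyl to dimethylallyl diphosphate (ENSG00000067064, chromosome 10, 1039152 to 1049170), went from 1124, 929 and 1100 in mock to 1292, 1321 and 1325 with CDO1, 1.25-fold. FDPS, farnesyl diphosphate synthase (ENSG00000160752, chromosome 1, 155308748 to 155320666), went from 646, 651 and 680 to 850, 1033 and 782, 1.35-fold. CDO1 replicate 2 stood apart for FDPS, and without it the log2 fold change was 0.31, the lowest over the alternatives, still past the threshold. The adjusted p was 0.00128 for IDI1 and 0.000672 for FDPS in limma. FDPS has 8 named pseudogenes in the annotation, of which FDPSP8, FDPSP2 and FDPSP3 were in the table at 0 to 3.67 normalised counts per library. RUSC1-AS1, whose exons overlap 693 bases of FDPS on the opposite strand, rose as well, from 38.8 ± 1.68 to 56.6 ± 5.23 (SD, n = 3, adjusted p = 0.0406 in limma). Whether the counting used strand is not given in the sources used here, so reads of such a pair cannot be told apart. The same limit holds for ACAT2 and HMGCS1. The largest exonic overlap of ACAT2 with a single gene opposite, among SOD2, SOD2-OT1 and TCP1, is 1458 bases. HMGCS1 has 703 bases opposite AC114947.2. TCP1 was far more abundant than ACAT2, at 9242 ± 563 in mock and 9328 ± 435 with CDO1 (SD, n = 3), and did not pass. IDI1, FDFT1, LSS, CYP51A1, SREBF1, SREBF2, NPC1, NPC2 and STARD4 also have exons opposite another gene.

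**Figure D2:**
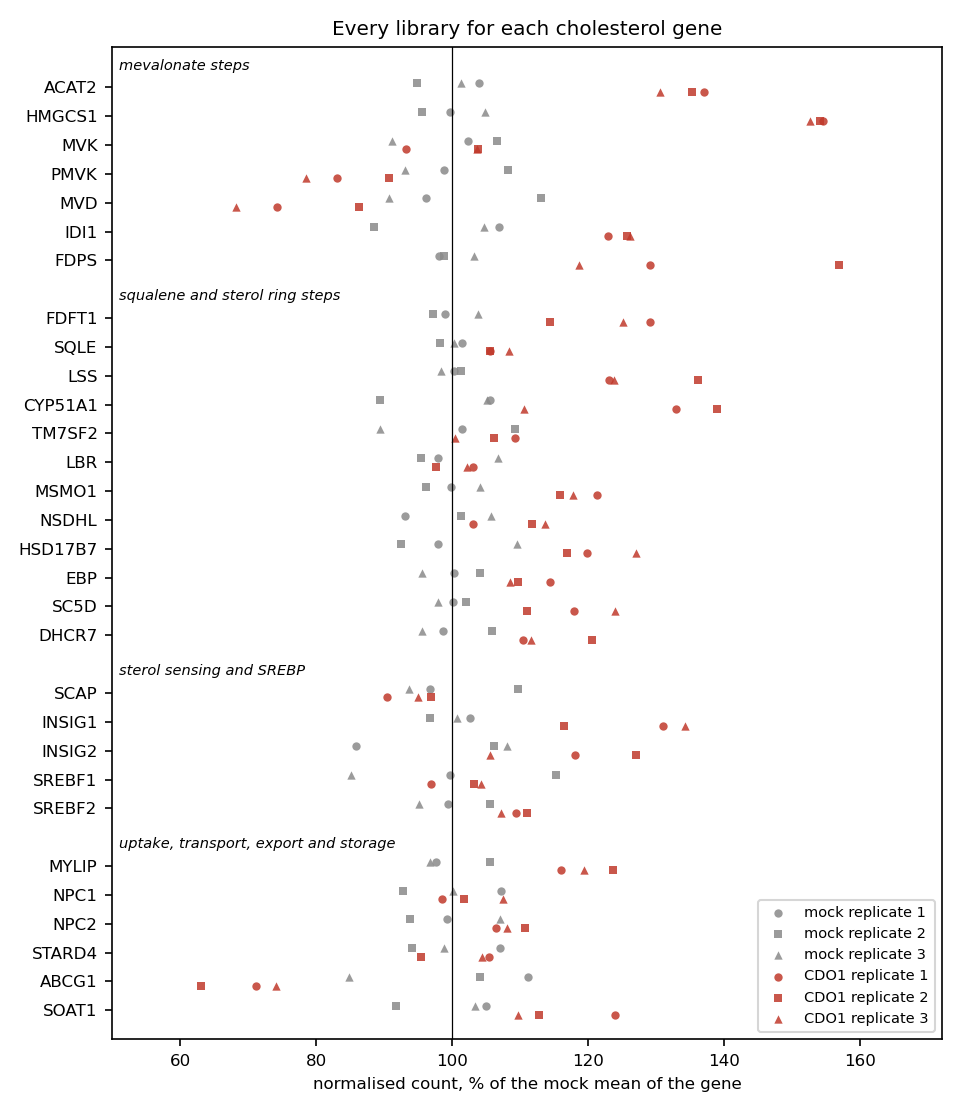
Normalised count of each gene in each library as a percentage of the gene's mock mean, in pathway order (grey mock, red CDO1; circle, square and triangle for replicates 1, 2 and 3). The CDO1 points of HMGCS1 sit tightly together above all mock points, those of FDPS are spread by replicate 2, and those of MVD and PMVK lie below mock.

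Promoter sequence is shown for 3 genes that rose (HMGCS1, FDPS and INSIG1, a sterol sensor gene) and for MVD, which fell. It is shown because SREBP switches on most genes of the pathway. SREBP binds weakly alone, and at many of its promoters it acts with NF-Y, the factor that binds the CCAAT box. The lines give the 250 bases before the RefSeq start of each gene, 5′ to 3′ on the strand of the gene, on GRCh38.p14. Capitals mark CCAAT or its reverse complement ATTGG.
HMGCS1, chr5:43313413-43313662, minus strand: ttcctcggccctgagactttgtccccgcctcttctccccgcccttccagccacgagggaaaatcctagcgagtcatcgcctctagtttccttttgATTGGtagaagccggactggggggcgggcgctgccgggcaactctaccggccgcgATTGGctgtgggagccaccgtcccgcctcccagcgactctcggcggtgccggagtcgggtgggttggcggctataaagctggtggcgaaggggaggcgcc
FDPS, chr1:155308616-155308865, plus strand: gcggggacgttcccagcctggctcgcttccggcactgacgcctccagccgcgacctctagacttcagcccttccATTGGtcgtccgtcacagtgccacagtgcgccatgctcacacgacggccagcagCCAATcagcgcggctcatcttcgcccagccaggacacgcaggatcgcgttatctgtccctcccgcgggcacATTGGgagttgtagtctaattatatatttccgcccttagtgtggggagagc
INSIG1, chr7:155297628-155297877, plus strand: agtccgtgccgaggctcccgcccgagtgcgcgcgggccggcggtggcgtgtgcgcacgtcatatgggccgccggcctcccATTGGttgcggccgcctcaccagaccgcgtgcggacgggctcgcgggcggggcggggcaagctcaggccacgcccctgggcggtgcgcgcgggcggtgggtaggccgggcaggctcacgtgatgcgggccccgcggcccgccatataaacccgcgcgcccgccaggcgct
MVD, chr16:88663092-88663341, minus strand: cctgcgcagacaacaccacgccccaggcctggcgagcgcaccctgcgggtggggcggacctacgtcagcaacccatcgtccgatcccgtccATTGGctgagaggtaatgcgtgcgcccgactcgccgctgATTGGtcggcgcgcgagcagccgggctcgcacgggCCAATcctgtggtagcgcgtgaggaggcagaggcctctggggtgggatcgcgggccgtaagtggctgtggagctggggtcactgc
The printed stretch of HMGCS1 holds 2 matches, that of FDPS 3, that of INSIG1 1 and that of MVD 3, while the window of PMVK, the other gene that fell, held 0. GENCODE release 29 draws the bounds of these genes wider than RefSeq, so each stretch lies partly inside them.

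Over the windows of 300 bases (250 before to 50 after the start) that RefSeq gives for 26 of the 30 genes, 18 held CCAAT on either strand, or 69.2%. The share was 35.7% of all 27305 windows of that length and 36.5% of the 10373 windows of genes with a mean of at least 20 normalised counts. A match was present in 10 of the 11 genes that rose and had a window, in 1 of the 2 that fell and in 7 of the 13 that did not pass. The windows of IDI1, SC5D and MYLIP, all genes that rose, end outside the transcripts of GENCODE release 29, and of these SC5D and MYLIP held a match. GGGCGG, the GC box, was in 24 of 26 windows, against 71.3% of windows of genes with that mean. CACNCCAC, the core letters of the classical sterol regulatory element, was in 3 of 26 (SC5D, INSIG1 and SREBF2), against 5.67%, and CACGTG, an E-box, in 4 of 26 (LSS, SC5D, SCAP and INSIG1), against 10.1%. All 4 motifs were read on both strands; none contains another, but matches of different motifs may overlap. A match describes letters in a window, not a bound site.

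From squalene to cholesterol all 12 genes had a positive log2 fold change, and 6 passed the test. The sign of LBR turned negative with equal library totals (-0.01), library totals in edgeR (-0.01), the GC trend removed (-0.04) and without mock replicate 2 (-0.02), and TM7SF2 lay at -8.1e-05 without mock replicate 3. FDFT1, squalene synthase (ENSG00000079459), the step that commits farnesyl diphosphate to sterols, went from 3388, 3329 and 3556 in mock to 4422, 3918 and 4283 with CDO1. All CDO1 libraries were above all mock libraries, 1.23-fold on average (log2 fold change 0.30 ± 0.06 SE, adjusted p = 0.000402 in limma). SQLE, the epoxidase that is a rate-limiting step after squalene (ENSG00000104549), stood at 1578, 1528 and 1560 in mock and 1643, 1642 and 1685 with CDO1. Its groups did not overlap, yet the difference was small, a log2 fold change of 0.09 with an interval of -0.02 to 0.20, and it did not pass (adjusted p = 0.250 in limma). LSS, which closes the rings to lanosterol (ENSG00000160285, chromosome 21, 46188141 to 46228824), went from 2370, 2396 and 2326 to 2908, 3219 and 2927, 1.28-fold (adjusted p = 5.50e-05 in limma).

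Of the genes that remove the methyl groups of lanosterol, CYP51A1 was the scarcest. This 14-alpha-demethylase stood at 80.7, 68.3 and 80.3 in mock and 102, 106 and 84.5 with CDO1. Its log2 fold change of 0.34 was as large as that of LSS, with an SE of 0.15, and did not pass (adjusted p = 0.103 in limma). In GENCODE release 29 AC000120.2 and AC000120.3 share exonic bases with CYP51A1 on the same strand. The larger of these overlaps covers 2844 of its 3584 exonic bases, so the level of CYP51A1 is uncertain. MSMO1, the C4-methyl oxidase, rose 1.18-fold, from 1262 ± 50.6 to 1492 ± 35.0 (SD, n = 3, adjusted p = 0.00331 in limma). HSD17B7, the reductase that completes C4-demethylation, rose 1.21-fold, from 359 ± 31.2 to 436 ± 18.5 (SD, n = 3, adjusted p = 0.0165 in limma). NSDHL, the dehydrogenase between them, stood at 767 ± 49.1 and 839 ± 43.1 (SD, n = 3) and did not pass (log2 fold change 0.13, interval -0.01 to 0.27). HSD17B7P2, a pseudogene near-identical to HSD17B7, stood at 25.1, 38.0 and 33.9 in mock and 55.2, 48.2 and 43.2 with CDO1, so the values of both are uncertain where reads match either.

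TM7SF2 and LBR both encode a sterol C14-reductase, and LBR is also a lamin B receptor of the inner nuclear membrane. TM7SF2 stood at 1069, 1151 and 942 in mock and 1152, 1119 and 1059 with CDO1, and LBR at 2564, 2499 and 2797 against 2700, 2559 and 2677. Both overlapped between groups, with log2 fold changes of 0.08 (interval -0.07 to 0.23) and 0.02 (interval -0.10 to 0.13). The closing steps rose slightly. SC5D, the C5-desaturase, went from 991, 1009 and 968 to 1168, 1099 and 1226, 1.18-fold (adjusted p = 0.00757 in limma), and DHCR7, which makes cholesterol from 7-dehydrocholesterol, from 3309, 3553 and 3207 to 3705, 4044 and 3745, 1.14-fold (adjusted p = 0.0146). EBP, the isomerase before SC5D, stood at 1282, 1332 and 1223 against 1462, 1402 and 1388, with no overlap and an adjusted p of 0.0698 in limma.

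Several of these calls ended when a library was left out, with the log2 fold change still positive. HSD17B7 did not pass without mock replicate 1, mock replicate 2 or CDO1 replicate 3 (adjusted p = 0.0669, 0.0544 and 0.0900 in limma, range over all alternatives 0.00318 to 0.0900), where its log2 fold change was 0.27, 0.23 and 0.25 against 0.28 with all libraries. DHCR7 did not pass without mock replicate 1 or CDO1 replicate 2 (0.0761 and 0.0800, range 4.91e-05 to 0.0800), nor SC5D without CDO1 replicate 3 (0.0661, range 0.00435 to 0.0661). The log2 fold change of DHCR7 was then 0.18 and 0.15 against 0.19, and that of SC5D 0.19 against 0.23. ACAT2, HMGCS1, IDI1, FDPS, FDFT1, LSS, MSMO1 and INSIG1 were higher and past the threshold, and MVD lower and past it, in each of the 18 alternative settings run.

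Of the sterol sensor genes 1 of 5 passed, or 20%, where 24% of all genes tested passed in either direction. INSIG1, the membrane anchor of SCAP that is itself an SREBP target (ENSG00000186480, chromosome 7, 155297776 to 155310235), went from 1325, 1249 and 1300 in mock to 1692, 1504 and 1734 with CDO1. It rose 1.27-fold, with CDO1 replicate 2 the lowest of its group yet above all mock libraries (log2 fold change 0.35 ± 0.06 SE, adjusted p = 0.000281 in limma). INSIG2, its paralog, stood at 251, 310 and 316 against 345, 371 and 309, where CDO1 replicate 3 lay within the mock range, and did not pass (log2 fold change 0.23, interval 0.02 to 0.44, adjusted p = 0.110 in limma). Neither transcription factor gene passed with all libraries. SREBF2, which chiefly drives cholesterol genes, stood at 4015, 4266 and 3845 against 4422, 4486 and 4330, with no overlap. Its log2 fold change was 0.13 with an interval of 0.02 to 0.24 (adjusted p = 0.0838 in limma). It passed without mock replicate 2 (0.0162) and with the replicate number as a block (0.0267), in a range over alternatives of 0.00153 to 0.233. SREBF1, which chiefly drives fatty acid genes, varied most of the 30 in mock (15.1% of the mean, SD), at 9352, 10814 and 7987 against 9095, 9681 and 9776 with CDO1, a log2 fold change of 0.03 with an interval of -0.13 to 0.19. SCAP stood at 2277 ± 195 and 2143 ± 75.3 (SD, n = 3), a log2 fold change of -0.09 with an interval of -0.21 to 0.04.

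Among genes of uptake, transport, export and storage 2 of 6 passed, or 33.3%, where 24% of all genes tested passed in either direction. Of genes with a mean of at least 20, 17.3% were higher and 17.9% lower, so this count does not set the group apart. MYLIP, the ubiquitin ligase that sends lipoprotein receptors to degradation (ENSG00000007944, chromosome 6, 16129125 to 16148248), went from 522, 564 and 517 in mock to 619, 660 and 637 with CDO1, a log2 fold change of 0.26 ± 0.07 (SE). All CDO1 libraries were above all mock libraries (adjusted p = 0.00892 in limma), and without mock replicate 1 the adjusted p was 0.0530 (range over all alternatives 0.00264 to 0.0530). SOAT1, which esterifies cholesterol for storage (ENSG00000057252, chromosome 1, 179293714 to 179358680), went from 709, 620 and 698 to 837, 762 and 741, 1.15-fold. Its adjusted p of 0.0419 in limma was the closest to the threshold of those that passed, and it ended in 10 of 18 alternatives, among them the authors' deposited table at 0.0703 (range 0.0173 to 0.22) and the omission of each library other than mock replicate 3. The nearest value outside the threshold was that of EBP.

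ABCG1, the exporter that loads cholesterol onto lipoprotein particles and an LXR target as MYLIP is, was the scarcest of the 30. It stood at 38.5, 36.1 and 29.4 in mock and 24.7, 21.9 and 25.7 with CDO1, no overlap and the lowest log2 fold change, -0.50 with an interval of -0.98 to -0.02. It did not pass (adjusted p = 0.129 in limma). NPC1 and NPC2, which hand cholesterol out of the lysosome, stood at 708 ± 51.3 against 726 ± 32.0 and at 1222 ± 80.7 against 1325 ± 26.6 (SD, n = 3), both with overlap. STARD4, a cytosolic sterol carrier and SREBP target, was at 501 ± 32.8 against 510 ± 27.6 (SD, n = 3), a log2 fold change of 0.03 with an interval of -0.13 to 0.18.

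Per length, SREBF1 was the most abundant of the 30, at 1169 normalised counts per kilobase of exon in mock and 1185 with CDO1. DHCR7 (807 and 921) and FDFT1 (658 and 809) were the highest enzymes. HMGCS1 moved from 440 to 676 per kilobase, which placed it above LBR, EBP and SREBF2 in the CDO1 libraries and below them in mock. ABCG1 (5.67 and 3.94) and CYP51A1 (21.3 and 27.2) were at the low end. Exon lengths are those of all annotated transcripts joined, so a gene with unused exons reads low on this scale.

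**Figure D3:**
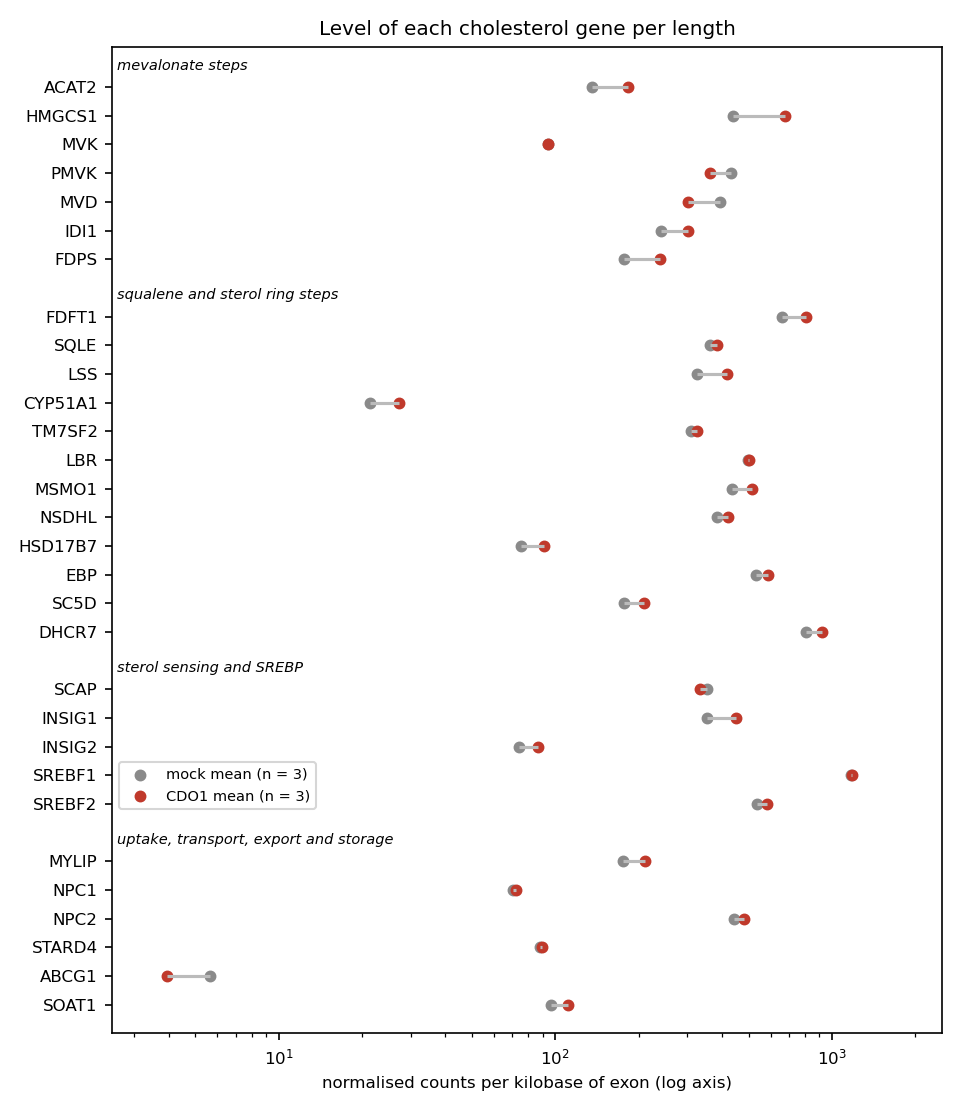
Mean normalised count per kilobase of exon on a log axis for each gene in mock (grey) and CDO1 (red) libraries, 3 per group. SREBF1 lies highest at 1169 and 1185, and ABCG1 lowest at 5.67 and 3.94.

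The ratio of partner genes with a like role was compared between groups in 4 pairs. The log2 ratio of INSIG1 to INSIG2 was 2.15 ± 0.22 in mock and 2.26 ± 0.24 with CDO1 (SD, n = 3, exact two-sided permutation p = 0.6). For SREBF1 to SREBF2 it was 1.21 ± 0.14 and 1.11 ± 0.07 (exact permutation p = 0.4, n = 3), for LBR to TM7SF2 1.32 ± 0.23 and 1.25 ± 0.08 (exact permutation p = 0.8, n = 3), and for NPC1 to NPC2 -0.79 ± 0.10 and -0.87 ± 0.06 (exact permutation p = 0.3, n = 3). The groups overlapped in all 4 pairs, and adjusted over them each p was 0.8. With 3 libraries against 3 the smallest p is 0.1, so these tests could not pass and do not show that partners moved alike.

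**Figure D4:**
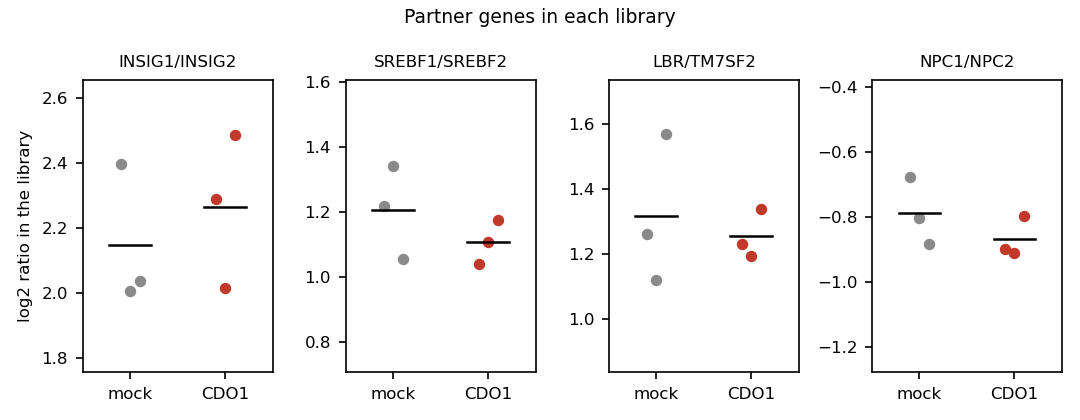
Log2 ratio of the normalised counts (plus 1) of 2 partner genes in each library, with a point per library and a bar at the group mean (grey mock, red CDO1); each panel spans the same height. The groups overlap in all 4 panels, as for INSIG1 to INSIG2 with means of 2.15 and 2.26.

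GC content moved with the fold changes. Spearman's rho between GC content of the transcripts and log2 fold change was -0.431 across the 30 genes, a description over genes that share the same 6 libraries. MVD has 64.1% GC and PMVK 59.5%, HMGCS1 41.6% and IDI1 41.6%. With each library's trend with GC content removed, 17 of the 30 were higher and 2 lower, where 13.5% and 15.9% of all genes were. MVD shifted furthest, to a log2 fold change of -0.26, and PMVK lay at -0.19, both past the threshold. HMGCS1 was at 0.56, ACAT2 at 0.38 and LSS at 0.39. TM7SF2 (0.19, adjusted p = 0.00487 in limma, range over alternatives 0.00487 to 1.00), SREBF1 (0.15, 0.00470, range 0.00470 to 0.979), SREBF2 (0.15, 0.00153, range 0.00153 to 0.233) and EBP (0.15, 0.0160, range 0.0160 to 0.239) passed under that setting.

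**Figure D5:**
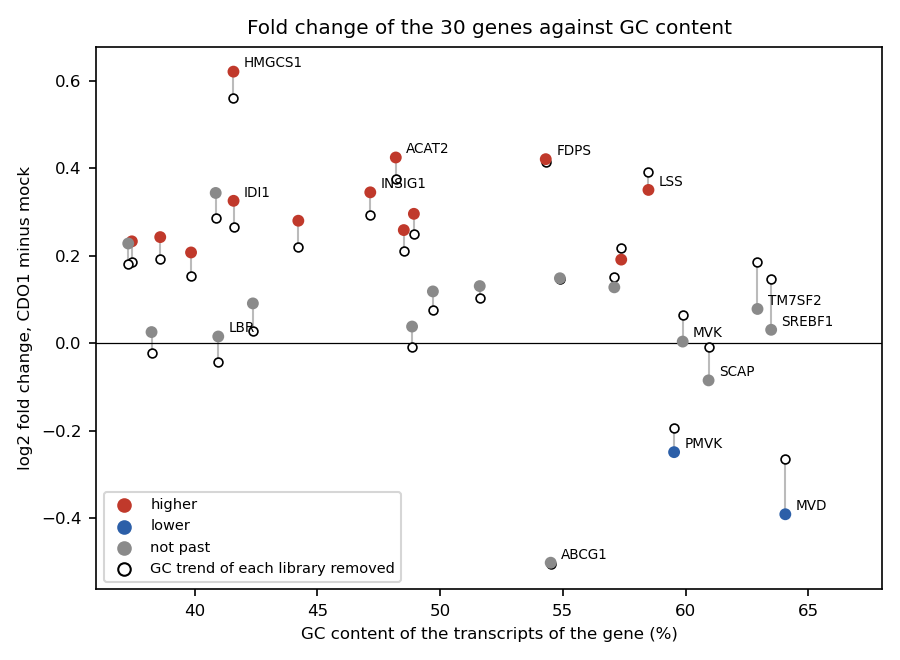
Log2 fold change (CDO1 minus mock) of the 30 genes against the GC content of their transcripts in percent; filled points are the values reported (red rose, blue fell, grey did not pass) and open points the same after the GC trend was taken out library by library. This moves MVD, at 64.1% GC, from -0.39 to -0.26 and HMGCS1, at 41.6%, from 0.62 to 0.56.

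Neighbouring genes of the pathway, in 4 further lists of 58 genes, held 55 that were tested: 14 rose (25.5%), 4 fell (7.27%) and 37 were not past the threshold, with a median log2 fold change of -0.01. The shares over all genes tested were 11.3% higher and 12.7% lower, and 17.3% and 17.9% among genes with a mean of at least 20. Without mock replicate 1, 8 were higher, as were 1852 of all 21824 genes tested. Without mock replicate 3, 7 were lower, as were 2885 of all 21711. In the isoprenoid branches, which turn the same intermediates into dolichol, ubiquinone and protein prenyl groups, 3 of 14 rose and 1 fell. These were DHDDS, a subunit of the dolichol-making prenyltransferase (1.22-fold higher), PDSS2, a subunit for the ubiquinone tail (1.24-fold higher), FNTA, the alpha subunit of the prenyltransferases (1.24-fold higher), and RABGGTA, of the Rab geranylgeranyl transferase (1.17-fold lower). Among 14 genes of SREBP processing and sterol-regulated degradation 1 passed, ERLIN2, a membrane protein of the endoplasmic reticulum that binds sterol-rich patches, at 1592 ± 8.41 in mock and 1956 ± 17.6 with CDO1 (SD, n = 3, adjusted p = 0.000227 in limma). The site proteases that release SREBP, MBTPS1 and MBTPS2, had log2 fold changes of -0.01 and 0.02.

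In the list of uptake and intracellular sterol transport 7 of 15 rose and 2 fell. The oxysterol-binding protein OSBP, which exchanges sterol at the Golgi, rose 1.18-fold, its relative OSBPL2 by 0.27 on the log2 scale, RELCH 1.17-fold and LIPA, the lysosomal acid lipase that frees cholesterol from esters, 1.22-fold. GRAMD1A, which carries cholesterol from the plasma membrane to the endoplasmic reticulum, stood apart in size. It was at 921, 1023 and 810 in mock and 430, 370 and 362 with CDO1, 2.37-fold lower (log2 fold change -1.24 ± 0.09 SE, adjusted p = 1.19e-09 in limma). Its paralog GRAMD1B was at 29.6, 39.0 and 33.9 against 22.7, 14.2 and 9.18 (adjusted p = 0.00620 in limma), and GRAMD1C at 62.0 ± 14.7 against 45.5 ± 4.56 (SD, n = 3) did not pass. In the list of LXR, oxysterol, export and ester genes 3 of 12 tested rose (LPCAT3 1.24-fold, the ester hydrolase NCEH1 1.19-fold and CYP39A1, an oxysterol hydroxylase, 1.40-fold) and the lipid transfer protein OSBPL5 fell 1.26-fold. CYP39A1 averaged 70.0 normalised counts in mock and 98.2 with CDO1. Its adjusted p was 0.0171 in limma, 0.0122 in edgeR and 0.0802 in DESeq2, where it did not pass. NR1H2 and NR1H3, the LXR genes, had log2 fold changes of -0.07 and -0.05.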

How the data were processed

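The table holds 6 libraries of KM12 cells, 3 per group. The authors deposited a signal per gene and library, its reads over the library's size factor, and the log2 fold change and p-value columns are the authors' comparison, per the file headers. STAR 2.5.1b, DESeq2 1.10.1 and GRCh38 are named per the submitters' processing notes, and the sources used here give neither read counter nor annotation. Undoing the scaling returned whole numbers of reads, to a tolerance of 0.001, for 100% of values. Column names tied all columns to samples. Names came from a reference table, lengths, GC content and coordinates from GENCODE 29 on GRCh38, and promoters from RefSeq on GRCh38.p14.

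The test was limma 3.58.1 (trend, R 4.3.3) on log2 values with a pseudocount of 1, kept where a gene averaged 1 normalised count or more, with Benjamini-Hochberg adjustment over all genes at 0.05, and intervals of 95%. A fold change on this scale understates low genes; folds in the text are ratios of means. edgeR 4.0.16 and DESeq2 1.42.0 ran on the recovered reads. With DESeq2 4296 and with edgeR 5423 genes passed, against 5229 in limma. The fits were tested on simulated data. Alternatives were the pseudocount, filter, threshold, scaling, GC trend (lowess span 0.3), replicate block, each library left out and the authors' values; library totals in edgeR and all alternatives for the neighbouring lists were chosen after seeing the data.

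The 30 genes and all lists were chosen with earlier results of these data known. Named genes are all 30, CDO1, and of each other list up to 6 past the threshold by p, other list members being free to be named with values. CH25H and CYP7B1 had no row and ABCG8 was under the filter. Within groups, pairs of libraries differed by a chi-square of 2.19 to 9.08 per degree of freedom, the highest between mock replicates 2 and 3. All libraries were kept.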

Additional observations from a re-analysis of the deposited data

How the results depend on the processing

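Over 18 alternatives no called gene of the 30 changed direction: of 540 gene and setting pairs 506 kept their side of the threshold, 24 lost a call and 10 gained one. The 13 genes higher became 9 to 15 with each library left out and 10 to 17 elsewhere, and the 2 lower became 1 to 2. At an adjusted p of 0.01, 1 gene was lower, 10 were higher, 3452 of all genes passed, and 9 genes of the 4 neighbouring lists were higher. Over all genes the count was 4002 to 5492 with a library left out. In the neighbouring lists it was 8 to 14 higher and 3 to 7 lower, and 7 were lower with equal library totals, with the GC trend removed and with library totals in edgeR. The log2 ratio of LBR to TM7SF2 differed by -0.06 between groups, and by -0.16 to 0.06 with a library left out, turning to 0.063 without mock replicate 3, where no call was made and the cause was not tested. INSIG1 to INSIG2 ranged from 0.0060 to 0.24, SREBF1 to SREBF2 from -0.17 to -0.03 and NPC1 to NPC2 from -0.13 to -0.02.

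The labels do not say whether a shared replicate number marks a shared culture or day. The deviations of replicates 1, 2 and 3 correlated at 0.078, 0.299 and 0.086 between groups, and CDO1 replicates 2 and 3 correlated best with their own number while CDO1 replicate 1 did so with mock replicate 3 (0.189), so the numbers were not used to pair libraries. With the replicate number as a block 5918 of all genes passed, 15 of the 30 were higher and 2 lower, and the neighbouring lists had 15 higher and 7 lower. ABCG1 (34.7 in mock, 24.1 with CDO1) and CYP51A1 (76.4 and 97.4) had the lowest mean normalised counts of the 30, and the part of depth in their values was not tested.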

Other observations

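MMAB, an enzyme of cobalamin metabolism that lies head to head with MVK, was outside the lists and was picked after its values were seen. Its exons overlap 306 bases of MVK on the opposite strand. MMAB rose from 499, 459 and 467 normalised counts in mock replicates 1 to 3 to 574, 613 and 628 with CDO1 (log2 fold change 0.35 ± 0.07 SE, adjusted p = 0.00106 in limma), with no overlap between groups, while MVK stood at 625, 651 and 557 against 569, 634 and 633. The strand setting of the counting is unknown here, so reads in the overlap cannot be assigned to either gene. The RefSeq window of MVK held 5 matches to CCAAT on either strand, as many as NSDHL and more than any other window of the 26.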
